A study of Mus musculus with 18 samples.

Results

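Of 17500 genes tested in cultured mouse fetal liver progenitors, 6 genes with lower read counts after PCBP2 knockdown at Day 2 were followed across both knockdowns and both days. They were chosen from the comparison of PCBP2 knockdown with control at Day 2 as Ddx19a, Ptpa, Arhgap45, Tmem259, Vps37b and Smim4, and all 6 passed the filter on low counts. Because that comparison chose them, its values are given here as a description, with no test. By the smallest p in that comparison they held ranks 4, 5, 6, 7, 10 and 12 of the 17500 genes, in the order named.

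Hematopoietic progenitors were enriched from livers of CD-1 mouse embryos at stage E14.5, with an antibody against CD71, the transferrin receptor, added to the depletion kit. The cells were transduced with MSCV-PIG retroviruses, which carry puromycin resistance and GFP, encoding short hairpin RNAs (shRNAs) against Pcbp2, against Pcbp1, or control hairpins. All groups were grown for 48 hours in expansion medium with dexamethasone, erythropoietin and SCF, and were collected then (Day 0) or after 2 more days in differentiation medium with a higher dose of erythropoietin (Day 2). The groups were PCBP2 knockdown, PCBP1 knockdown and control at Day 2, and the same 3 conditions at Day 0, with 3 libraries each and 18 in all. The 3 libraries of a knockdown carried 3 different hairpins, numbered 1, 3 and 4, and the controls carried 2 scrambled hairpins (SCR-1 and SCR-2) and 1 against luciferase (LUC-1). Nothing in the labels ties a sample to its own culture or litter, and the p-values thus cover only the spread of these samples, which may be technical. In these bulk samples, fewer cells of a type and less RNA per cell cannot be told apart.

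The proteins PCBP1 and PCBP2 bind poly(C). Their KH domains hold C-rich stretches of RNA, and they act in splicing, mRNA stability and translation, and also as iron chaperones. In red cell precursors they are known for binding the 3′ UTR of alpha-globin mRNA and stabilising it. The series examined what PCBP1 and PCBP2 do in murine erythropoiesis.

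The 6 genes are not known as one pathway. Ddx19a encodes a DEAD-box RNA helicase related to yeast Dbp5, which acts in mRNA export at the nuclear pore. Ptpa encodes an activator of protein phosphatase PP2A. Arhgap45 encodes a GTPase-activating protein that is found mainly in blood cells. Tmem259 encodes membralin, a membrane protein of the endoplasmic reticulum (ER) that takes part in the degradation of ER proteins. Vps37b encodes a subunit of ESCRT-I, a complex that sorts ubiquitinated cargo at endosomes. Smim4 encodes a small mitochondrial membrane protein that is known in human cells as a factor in the assembly of respiratory complex III.

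All 6 are protein-coding genes of the GENCODE M21 annotation of the GRCm38 genome. Ddx19a (ENSMUSG00000015023) lies on the minus strand at chr8:110974996-110997800, and Ptpa (ENSMUSG00000039515) on the plus strand at chr2:30416039-30447806. Arhgap45 (ENSMUSG00000035697) is on the plus strand at chr10:80016653-80031472 and Tmem259 (ENSMUSG00000013858) on the minus strand at chr10:79974948-79984330, 32322 bases apart with 3 genes between them. Vps37b (ENSMUSG00000066278) is on the minus strand at chr5:124004641-124032270 and Smim4 (ENSMUSG00000058351) on the minus strand at chr14:31088132-31128956.

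Since the proteins knocked down bind C-rich RNA, the most C-rich stretch of 30 bases in the transcript with the highest TPM is shown first for 5 of the genes, in the sense of the mRNA, 5′ to 3′, with runs of 3 or more C in capitals.
Ptpa, 3′ UTR, chr2:30446499-30446528, plus strand: ctctgtgaCCCagcaCCCCtCCCgCCCacc
Arhgap45, coding sequence, chr10:80029049-80029078, plus strand: cctcgaCCCactgacgccaccgtgtCCCtc
Tmem259, coding sequence, chr10:79977679-79977708, minus strand: CCCCtgccactccggatCCCagCCCtCCCC
Vps37b, coding sequence, chr5:124006529-124006558, minus strand: CCCtcacctgccaccgCCCttCCCtaCCCC
Smim4, 3′ UTR, chr14:31124705-31124734, minus strand: ccagggggttccacaCCCaCCCacctaCCC

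Vps37b had 20 C in its best stretch of 30 bases (14.0% of tested genes had as many), Tmem259 had 19 (23.1%) and Ptpa had 18 (34.6%). Arhgap45 and Smim4 had 16 each, the median over the tested genes. Counted over the whole transcript, runs of 4 or more C came to 5.497 per kb in Ddx19a, 6.57 in Ptpa, 5.72 in Arhgap45, 7.92 in Tmem259, 7.93 in Vps37b and 2.35 in Smim4, with a median of 3.07 over the tested genes. So 5 of the 6 transcripts lay above that median and Smim4 below it. These are matches of letters and say nothing of binding. The Smim4 transcript is longer in the annotation than in the deposited tables.

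The hairpins lowered their targets on both days. At Day 2 Pcbp2 had 39.5, 37.0 and 48.0 CPM in PCBP2 knockdown (hairpins 1, 3 and 4), against 229, 225 and 247 CPM in control (SCR-1, SCR-2 and LUC-1). These are 16.9%, 15.8% and 20.5% of the control mean, and 24.6%, 24.4% and 25.5% remained at Day 0. Pcbp1 was at 5.83%, 21.3% and 15.0% of the control mean with PCBP1 hairpins 1, 3 and 4 at Day 2. CPM here is the read count of a gene relative to the library size after TMM scaling.

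The libraries held 26949544 to 53784444 estimated reads assigned to annotated genes. Globin genes took 24.7% to 33.5% of them at Day 2 and 0.301% to 0.485% at Day 0. All 10 erythroid markers on a list (Klf1, Gata1 and others) were present in every group, and their summed CPM at Day 2 was 214772 to 267396 in PCBP2 knockdown, 214891 to 221964 in PCBP1 knockdown and 268414 to 390960 in control. Both knockdowns thus lay below the controls on this sum, PCBP2 knockdown only narrowly. The list includes the globin genes Hba-a1 and Hbb-bt, so the sum and the globin share of the reads are not separate readings. The sum also depends on the TMM factors, which at Day 2 were 0.503 to 0.570 in control and 0.584 to 0.639 in PCBP2 knockdown. In PCBP2 knockdown 3 of 10 markers were called lower (3.75% of all tested genes were) and 7 of 10 in PCBP1 knockdown (7.61% of all tested genes were). The globin share of the reads at Day 2 was 25.9% to 28.6% in PCBP2 knockdown, which overlaps control at 27.6% to 33.5%. In PCBP1 knockdown it was 24.7% to 26.6%, below control. The part of these differences in the results on the 6 genes was not tested. The hepatocyte markers Alb, Afp, Ttr and Apoa1 were under 1 CPM in every Day 2 group, as was the T cell marker Cd3e. The LUC-1 library lay apart from the other controls at Day 2, at -74.9 on the first principal component of that day against -1.27 for SCR-1 and -11.4 for SCR-2. The log2 fold changes of PCBP2 knockdown over control at Day 2 are therefore also given without it. Other values that use the Day 2 controls include it unless stated.

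At Day 2, each of the 6 genes was lower with all 3 PCBP2 hairpins than in all 3 controls, as were 10.4% of all tested genes. Ddx19a had 52.0, 55.4 and 52.2 CPM in PCBP2 knockdown (hairpins 1, 3 and 4), against 101, 83.8 and 89.6 CPM in control (SCR-1, SCR-2, then LUC-1). The 3 hairpins lay within a narrow span and clear of the lowest control. Ptpa had 183, 175 and 158 CPM in PCBP2 knockdown, against 296, 254 and 291 CPM in control. Arhgap45 had 166, 177 and 157 CPM in PCBP2 knockdown, against 294, 315 and 267 CPM in control. For both genes the highest hairpin was well under the lowest control.

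At Day 2 Tmem259 had 19.8, 18.9 and 19.6 CPM in PCBP2 knockdown, against 29.8, 35.4 and 40.5 CPM in control, with libraries in the same order. Here the knockdown libraries were tight and the controls spread. Vps37b had 97.4, 106 and 92.4 CPM in PCBP2 knockdown, against 165, 169 and 259.6 CPM in control, and LUC-1 was the high control. Smim4, the gene with the fewest reads, had 13.5, 10.4 and 10.2 CPM in PCBP2 knockdown, against 21.5, 27.7 and 25.1 CPM in control. Hairpin 1 gave the highest Smim4 value of the knockdown libraries, still under each control.

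**Figure D1:**
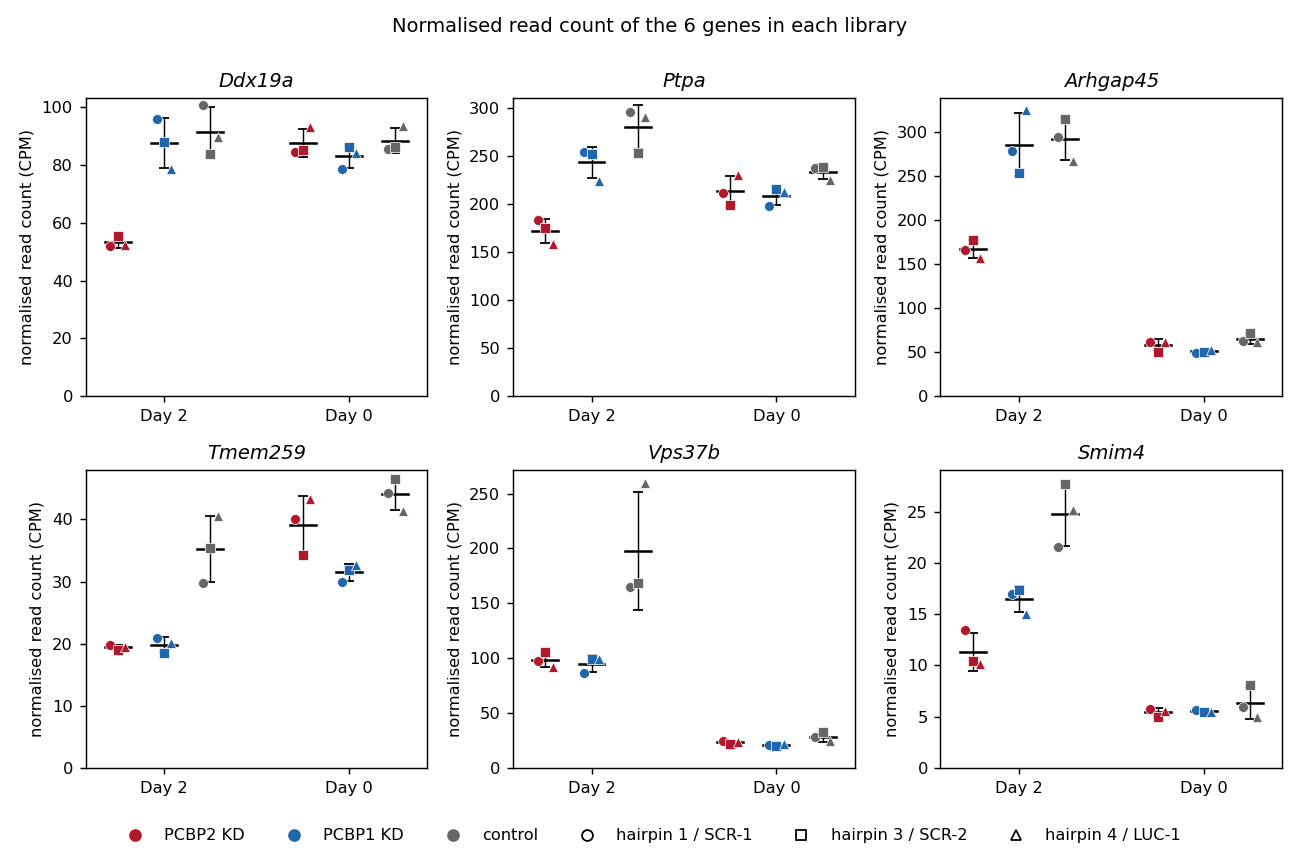
Normalised read count (CPM) of each gene in every library, in PCBP2 knockdown (red), PCBP1 knockdown (blue) and control (grey) at Day 2 and Day 0; bars are the mean ± SD of 3 libraries. At Day 2 the red points of every panel lie below all grey points (52.0 to 55.4 against 83.8 to 101 CPM for Ddx19a), and at Day 0 the red and grey points overlap in every panel.

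The log2 fold changes at Day 2 in PCBP2 knockdown over control were -0.78 (SE 0.10) for Ddx19a, -0.70 (SE 0.09) for Ptpa, -0.81 (SE 0.11) for Arhgap45, -0.86 (SE 0.11) for Tmem259, -1.01 (SE 0.14) for Vps37b and -1.13 (SE 0.16) for Smim4. In the same fit 3.75% of all tested genes were called lower, at a Benjamini-Hochberg adjusted p under 0.05 in edgeR's quasi-likelihood test, and 0.949% higher. The median over all tested genes was -0.01. All 6 genes were among those called, which is what chose them. Without the LUC-1 control the value of Vps37b was -0.82, and the others lay between -1.18 and -0.73. Scaling by library totals in place of TMM moved the median of all genes in this comparison by 0.20 on the log2 scale, and turned the split of calls from 656 lower and 166 higher to 227 lower and 985 higher. The 6 genes were then at -0.58 (Ddx19a), -0.51 (Ptpa), -0.61 (Arhgap45), -0.65 (Tmem259), -0.79 (Vps37b) and -0.93 (Smim4).

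The genes differed in abundance. On the deposited TPM, which is per length and was summed over the transcripts of a gene, the Day 2 averages were 52.6 ± 5.16 TPM in PCBP2 knockdown and 71.5 ± 11.5 TPM in control for Ptpa (SD, n = 3 each). Smim4 averaged 40.2 ± 4.59 TPM in PCBP2 knockdown and 71.1 ± 9.96 TPM in control. Vps37b averaged 31.4 ± 2.21 TPM in PCBP2 knockdown and 43.9 ± 6.33 TPM in control, and Arhgap45 averaged 29.5 ± 3.06 TPM in PCBP2 knockdown and 42.8 ± 7.16 TPM in control. In the controls the level per length of Ptpa differed from that of Smim4 by less than the spread, and likewise for Vps37b and Arhgap45. Ddx19a averaged 23.6 ± 2.03 TPM in PCBP2 knockdown and 34.4 ± 6.41 TPM in control. Tmem259 was the least abundant per length, at 6.78 ± 0.316 TPM in PCBP2 knockdown and 9.75 ± 0.572 TPM in control. TPM carries the globin share of each library in its total, so the order of the genes, not the fold, is read from it.

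Each hairpin was set against the mean of the Day 2 controls. With PCBP2 hairpins 1, 3 and 4, Ddx19a was at 56.9%, 60.7% and 57.1% of that mean, Ptpa at 65.4%, 62.5% and 56.5%, and Arhgap45 at 57.0%, 60.7% and 53.8%. Tmem259 was at 56.1%, 53.7% and 55.5%, Vps37b at 49.2%, 53.4% and 46.7%, and Smim4 at 54.3%, 42.0% and 41.0%. No hairpin gave the lowest value for all 6 genes. Hairpin 4 was lowest for Ptpa, Arhgap45, Vps37b and Smim4, hairpin 3 for Tmem259 and hairpin 1 for Ddx19a, while Pcbp2 itself was lowest with hairpin 3.

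GC content moved with the knockdown effect across genes. The Spearman correlation between a gene's GC content and its log2 fold change, over all 17500 tested genes as a description, was -0.304 in PCBP2 knockdown against control at Day 2, -0.291 in PCBP1 knockdown against control at Day 2, -0.288 in PCBP2 knockdown at Day 0 and -0.397 in PCBP1 knockdown at Day 0. All genes of a comparison share the same libraries. The transcripts of Tmem259 were 62.8% GC, higher than 99.2% of the tested genes. Arhgap45 had 58.4%, Vps37b 58.3%, Ptpa 57.3%, Smim4 54.0% and Ddx19a 50.5%, against a median of 49.4% over all tested genes and of 56.7% over those called lower in PCBP2 knockdown at Day 2.

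The GC trend was therefore removed within each library and the fit repeated. Ddx19a, whose GC content is near the median, had a log2 fold change of -0.82 in PCBP2 knockdown over control at Day 2 after the correction, and Smim4 had -1.09. The GC-rich genes came closer to 0, with -0.79 for Vps37b, -0.59 for Arhgap45, -0.53 for Ptpa and -0.49 for Tmem259. Tmem259 moved furthest, from its uncorrected -0.86. All 6 were still among the genes called lower, which were 1.87% of all tested genes after the correction. This fit reuses the libraries that chose the genes, so it is a description as well.

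With the trend removed, Ddx19a was at 55.7%, 58.9% and 55.2% of the control mean with PCBP2 hairpins 1, 3 and 4 at Day 2, and Smim4 at 55.9%, 43.9% and 41.8%. Vps37b was at 57.0%, 63.5% and 52.9%, and Arhgap45 at 65.8%, 72.1% and 60.9%. Ptpa was at 73.3%, 72.0% and 62.3%, and Tmem259 at 73.3%, 71.4% and 69.4%. Each hairpin stayed below each control library for all 6 genes. The share of all tested genes that part in this way after the correction was not counted, and these libraries chose the 6 genes. Of the controls, the lowest after correction was SCR-2 for Vps37b, at 81.1% of the control mean.

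**Figure D2:**
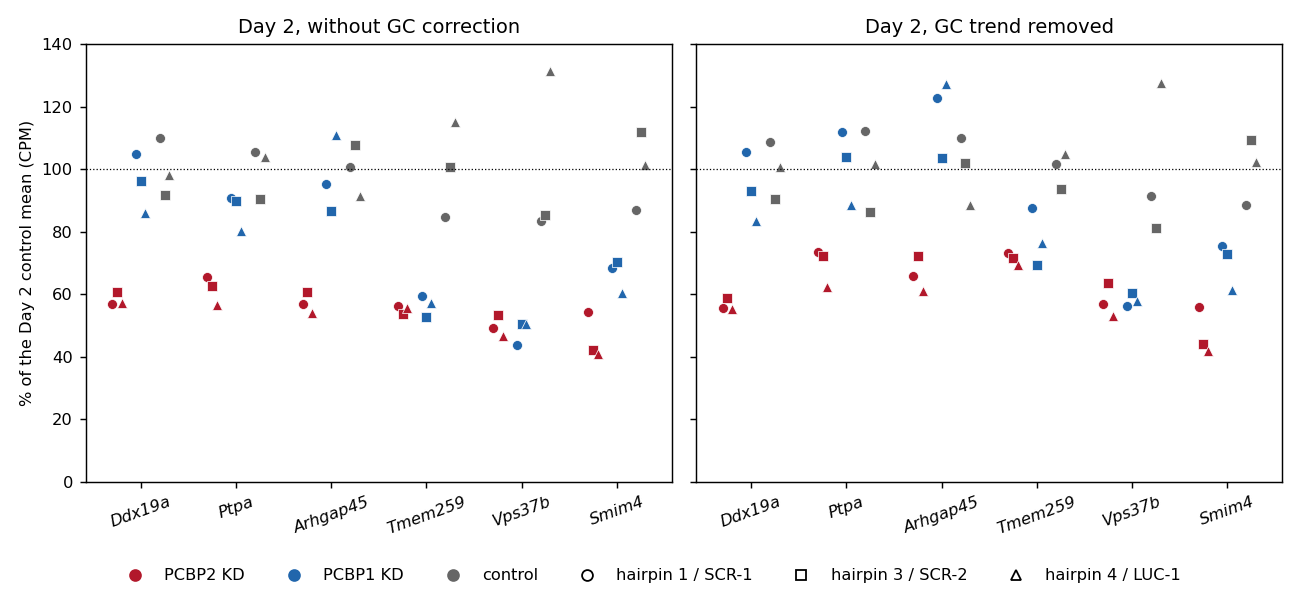
CPM of each library at Day 2 as a percentage of the Day 2 control mean, without GC correction (left) and with the GC trend removed (right), for PCBP2 knockdown (red), PCBP1 knockdown (blue) and control (grey). Without correction the PCBP2 hairpins lie between 41.0% and 65.4%; with the trend removed, Tmem259 lies at 69.4% to 73.3% and Ddx19a at 55.2% to 58.9%.

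**Figure D3:**
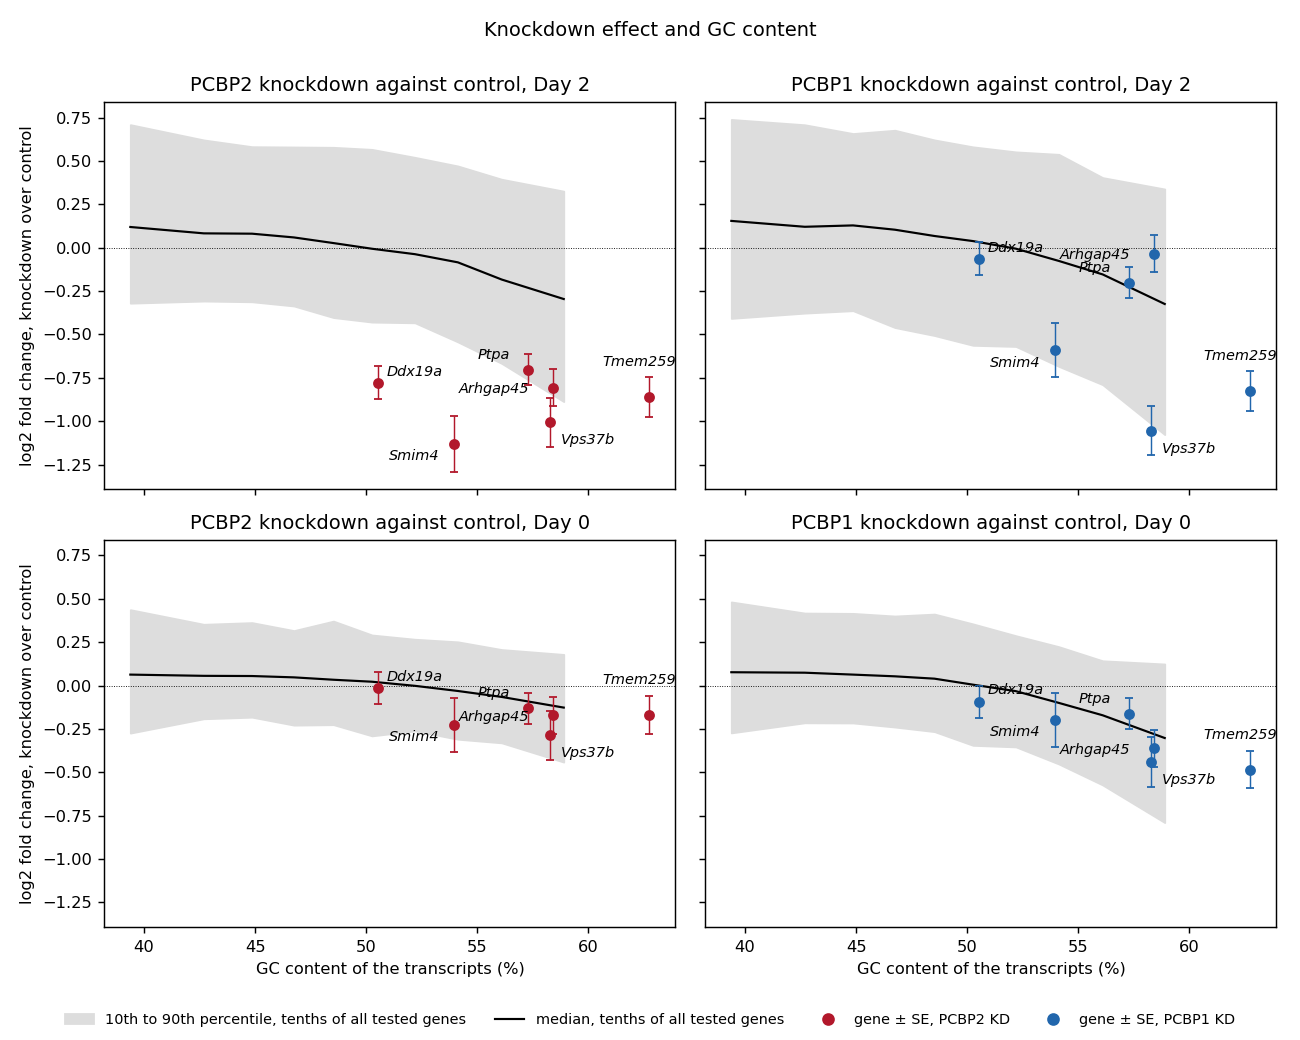
Log2 fold change ± SE of each gene against the GC content of its transcripts (%), in 4 comparisons; the line is the median and the grey band the 10th to 90th percentile over 10 equal bins of all tested genes by GC content. At Day 2 in PCBP2 knockdown, Ddx19a (-0.78) and Smim4 (-1.13) lie well below the band, while Arhgap45 (-0.81) is close to its lower edge of -0.89 in the bin with the highest GC content.

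In PCBP1 knockdown at Day 2, compared with the same controls, the 6 genes fell into a group near control and a group below it. Ddx19a had 95.7, 88.0 and 78.4 CPM with PCBP1 hairpins 1, 3 and 4, which overlap the controls given above. Ptpa had 254, 252 and 225 CPM in PCBP1 knockdown, with only its highest hairpin reaching the control range. Arhgap45 had 279, 253 and 324 CPM in PCBP1 knockdown, on both sides of the controls. So these 3 genes were near control with PCBP1 hairpins and below it with PCBP2 hairpins.

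Tmem259 had 20.99, 18.5 and 20.1 CPM with PCBP1 hairpins 1, 3 and 4 at Day 2, which interleaved with the PCBP2 hairpins and lay below every control. Vps37b had 86.3, 99.5 and 99.6 CPM in PCBP1 knockdown, likewise below every control, with hairpin 1 below every PCBP2 hairpin and the other two among them. Smim4 had 16.98, 17.4 and 15.0 CPM in PCBP1 knockdown, above every PCBP2 hairpin and below every control. The share of all tested genes below every control in PCBP1 knockdown at Day 2 is not given here.

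Side by side, the log2 fold changes at Day 2 over the shared controls were -0.78 in PCBP2 knockdown and -0.06 in PCBP1 knockdown for Ddx19a. For Ptpa they were -0.70 in PCBP2 knockdown and -0.20 in PCBP1 knockdown, and for Arhgap45 -0.81 in PCBP2 knockdown and -0.03 in PCBP1 knockdown. Tmem259 had -0.86 in PCBP2 knockdown and -0.83 in PCBP1 knockdown. Vps37b had -1.01 in PCBP2 knockdown and -1.06 in PCBP1 knockdown, and Smim4 had -1.13 in PCBP2 knockdown and -0.59 in PCBP1 knockdown. With 1 library left out, Vps37b in PCBP1 knockdown lay between -1.13 and -0.82. With the GC trend removed, the PCBP1 knockdown values were -0.09 for Ddx19a, 0.02 for Ptpa, 0.24 for Arhgap45, -0.36 for Tmem259, -0.78 for Vps37b and -0.52 for Smim4. Tmem259, Vps37b and Smim4 were called lower in PCBP1 knockdown with and without the correction, as were 7.61% of all tested genes without it and 6.22% with it. The call of Smim4 was lost when SCR-2 or PCBP1 hairpin 4 was left out. Both comparisons use the same control libraries, which had a part in choosing the 6 genes. The calls in PCBP1 knockdown are therefore a description and not a test, and no test of likeness is given.

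PCBP2 knockdown was also set directly against PCBP1 knockdown at Day 2, a comparison free of the controls that still holds the libraries which chose the genes. The log2 difference, PCBP2 knockdown minus PCBP1 knockdown, was -0.72 for Ddx19a, -0.77 for Arhgap45, -0.50 for Ptpa and -0.54 for Smim4. It was -0.03 for Tmem259 and 0.05 for Vps37b, where the hairpins of the 2 knockdowns overlapped. In this comparison 7.3% of all tested genes were called lower. After GC correction Vps37b had -0.01.

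At Day 0 the 6 genes were measured in libraries that had no part in choosing them, so tests are given. None of the 6 passed the test in PCBP2 knockdown against control at Day 0, where edgeR's quasi-likelihood test called 0.0229% of the tested genes lower and 0 higher. Ddx19a had 84.2, 85.0 and 93.0 CPM in PCBP2 knockdown, against 85.5, 86.1 and 93.5 CPM in control, which is the same range. Ptpa had 211, 199 and 231 CPM in PCBP2 knockdown, against 238, 239 and 225 CPM in control. Arhgap45 had 61.9, 50.6 and 61.8 CPM in PCBP2 knockdown, against 62.5, 72.1 and 61.6 CPM in control. In all 3 genes the groups overlapped.

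Tmem259 had 40.0, 34.2 and 43.3 CPM in PCBP2 knockdown at Day 0, against 44.2, 46.5 and 41.4 CPM in control. Vps37b had 24.6, 21.5 and 23.7 CPM in PCBP2 knockdown, against 28.2, 32.7 and 24.2 CPM in control. Smim4 had 5.75, 4.93 and 5.61 CPM in PCBP2 knockdown, against 5.99, 8.07 and 4.95 CPM in control. For Tmem259, Vps37b and Smim4 as well, the highest PCBP2 hairpin was above the lowest control.

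The log2 fold changes at Day 0 in PCBP2 knockdown over control were -0.02 (SE 0.09) for Ddx19a, -0.13 (SE 0.09) for Ptpa, -0.17 (SE 0.11) for Arhgap45, -0.17 (SE 0.11) for Tmem259, -0.29 (SE 0.14) for Vps37b and -0.23 (SE 0.16) for Smim4. The adjusted p of edgeR's quasi-likelihood test was 1 for each. With the GC trend removed they were -0.03, -0.04, -0.06, -0.00, -0.17 and -0.19 in the same order. Pcbp2 itself was lowered at Day 0 to about the share of control given above. The change of the PCBP2 knockdown effect between the days, Day 2 minus Day 0, was -0.76 for Ddx19a, -0.57 for Ptpa, -0.63 for Arhgap45, -0.69 for Tmem259, -0.72 for Vps37b and -0.90 for Smim4. It includes the Day 2 libraries that chose the genes and is a description. Over all 17500 genes the edgeR quasi-likelihood test called 0 genes for this change, with 1594 at an unadjusted p under 0.05, so a difference in effect between the days is not shown for any gene.

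In PCBP1 knockdown against control at Day 0, Tmem259 was called lower and the other 5 genes did not pass the test. Tmem259 had 29.95, 31.9 and 32.6 CPM with PCBP1 hairpins 1, 3 and 4, against 44.2, 46.5 and 41.4 CPM in control. The log2 fold change was -0.48 (SE 0.11; adjusted p = 0.0305 in edgeR's quasi-likelihood test), with all 3 hairpins below all 3 controls, and 0.834% of the tested genes were called lower. The call was lost with the GC trend removed, at -0.10. It was also lost when SCR-1, SCR-2 or hairpin 1, 3 or 4 was left out, and kept without LUC-1, with adjusted p between 0.0461 and 0.256.

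Arhgap45 had 49.6, 50.5 and 52.6 CPM in PCBP1 knockdown at Day 0, against 62.5, 72.1 and 61.6 CPM in control, a log2 fold change of -0.36 (adjusted p = 0.132 in edgeR's quasi-likelihood test). Vps37b had 20.5, 20.2 and 22.0 CPM in PCBP1 knockdown, against 28.2, 32.7 and 24.2 CPM in control, a log2 fold change of -0.44 (adjusted p = 0.180, edgeR). Both genes were below control with every PCBP1 hairpin without passing the test in the fit of all 18 libraries. With the 9 libraries of Day 0 alone both were called, and with the GC trend also removed neither was. Ptpa had a log2 fold change of -0.16 (adjusted p = 0.568, edgeR), also with no overlap between the groups. Ddx19a (-0.09) and Smim4 (-0.20) overlapped the controls, with adjusted p of 0.850 and 0.783 in edgeR's test. In this comparison the groups did not overlap, with knockdown lower, for 4 of the 6 genes and for 14.7% of all tested genes. With the GC trend removed the 6 values lay between -0.17 and 0.06 and none of the 6 was called, against 0.103% of all tested genes called lower.

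Between the days the 6 genes went different ways, and this was tested in the PCBP1 knockdown libraries, which had no part in choosing them. Arhgap45, Vps37b and Smim4 rose in Day 2 over Day 0, with log2 fold changes of 2.49 (adjusted p = 9.35e-15), 2.19 (adjusted p = 8.40e-12) and 1.57 (adjusted p = 8.78e-09) in edgeR's quasi-likelihood test. Arhgap45 had 279, 253 and 324 CPM at Day 2, against 49.6, 50.5 and 52.6 CPM at Day 0 with the same hairpins. Tmem259 fell by 0.66 on the log2 scale (adjusted p = 1.46e-05, edgeR), with 20.99, 18.5 and 20.1 CPM at Day 2 against 29.95, 31.9 and 32.6 CPM at Day 0.

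Ptpa rose by 0.22 on the log2 scale (adjusted p = 0.0277 in edgeR's quasi-likelihood test) in PCBP1 knockdown between the days, with every Day 2 library above every Day 0 library, but the call was lost in 5 of the 6 fits that left out 1 PCBP1 knockdown library. Ddx19a had 0.08 (SE 0.09; adjusted p = 0.455, edgeR) and overlapping days. Of all tested genes 40.3% were called higher and 41.7% lower in this comparison. Scaling by library totals moved the median of all genes in it by -1.42, and put Ddx19a at -1.35 and Ptpa at -1.21. Under that scaling Arhgap45, Vps37b and Smim4 stayed above 0, and Smim4 was no longer called, at 0.14.

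In control the log2 change in Day 2 over Day 0 was 2.16 for Arhgap45, 2.80 for Vps37b, 1.97 for Smim4, -0.32 for Tmem259, 0.26 for Ptpa and 0.05 for Ddx19a. In PCBP2 knockdown it was 1.52 for Arhgap45, 2.08 for Vps37b, 1.06 for Smim4, -1.01 for Tmem259, -0.31 for Ptpa and -0.72 for Ddx19a. Arhgap45, Vps37b and Smim4 were thus higher at Day 2 than at Day 0 under every condition, by less in PCBP2 knockdown. Ddx19a and Ptpa were lower at Day 2 than at Day 0 in PCBP2 knockdown alone of the 3 conditions with TMM scaling. With library totals both were also lower at Day 2 in PCBP1 knockdown, as given above. With the GC trend removed, the change in PCBP2 knockdown was -0.73 (SE 0.10) for Ddx19a and only -0.12 (SE 0.10) for Ptpa. The PCBP2 knockdown values hold the libraries that chose the genes.

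**Figure D4:**
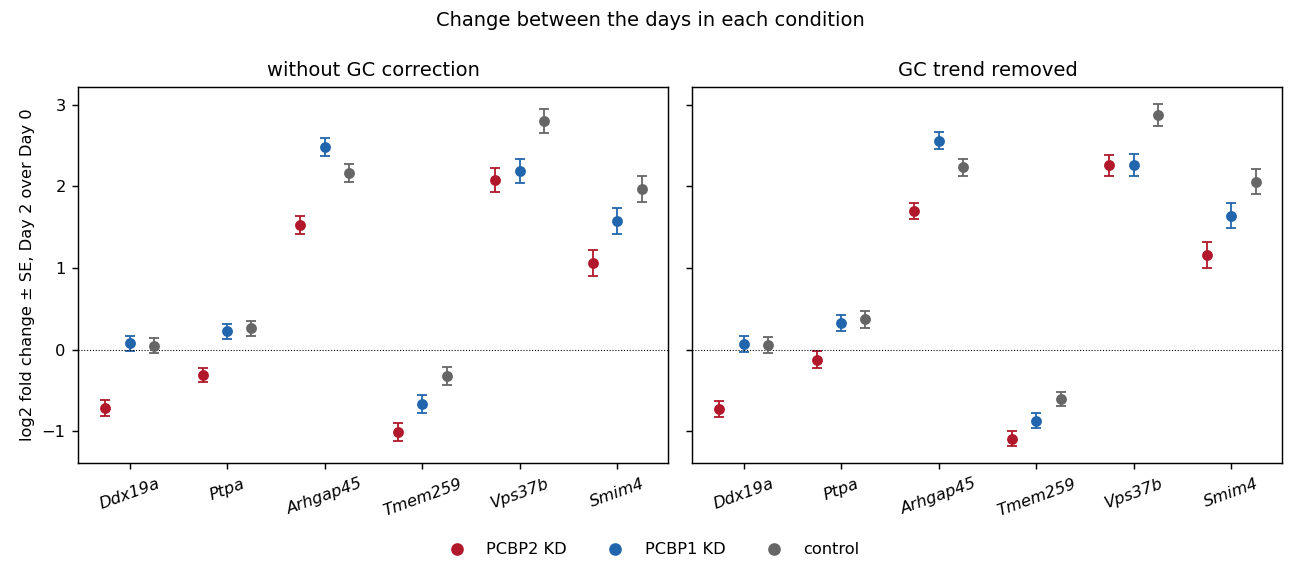
Log2 fold change ± SE in Day 2 over Day 0 for each gene in PCBP2 knockdown (red), PCBP1 knockdown (blue) and control (grey), without GC correction (left) and with the GC trend removed (right). Red lies below grey for all 6 genes, at -0.72 against 0.05 for Ddx19a and 1.52 against 2.16 for Arhgap45.

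The transcripts behind each gene were examined next. Salmon splits reads among overlapping transcripts by estimation, so shares of transcripts carry an error of assignment that n = 3 does not show. Ddx19a-201, the protein-coding transcript, had 41.5 ± 1.98 CPM in PCBP2 knockdown, 72.1 ± 5.15 CPM in PCBP1 knockdown and 70.3 ± 7.30 CPM in control at Day 2 (SD, n = 3 each). Ptpa-201 had 129 ± 10.3 CPM in PCBP2 knockdown, 198 ± 14.9 CPM in PCBP1 knockdown and 221 ± 25.3 CPM in control. Ptpa has 5 protein-coding transcripts in the annotation, of which the most read is given here. Both transcripts were thus lower in PCBP2 knockdown, as the genes were.

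Arhgap45 has 2 main protein-coding transcripts. Arhgap45-202 had 30.2 ± 5.96 CPM in PCBP2 knockdown, 66.1 ± 12.7 CPM in PCBP1 knockdown and 79.1 ± 22.9 CPM in control at Day 2. Arhgap45-201 had 89.98 ± 12.5 CPM in PCBP2 knockdown, 130.3 ± 2.88 CPM in PCBP1 knockdown and 122 ± 19.4 CPM in control. Arhgap45-202 held 14.9% to 21% of the reads of the gene in PCBP2 knockdown and 23.3% to 33.4% in control.

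Tmem259-201 held 33.7% to 55.1% of the gene's reads in PCBP2 knockdown, 26.7% to 35.7% in PCBP1 knockdown and 40.2% to 56.2% in control at Day 2. The share was thus lower with PCBP1 hairpins and overlapped control with PCBP2 hairpins. Vps37b-201 held 90.5% of the gene's reads in PCBP2 knockdown, 93.1% in PCBP1 knockdown and 98.2% in control on average. The transcript Vps37b-202, annotated as a processed transcript, held 6.31% to 12.4% in PCBP2 knockdown and 0.565% to 2.997% in control. Smim4-203 had 5.74 ± 2.04 CPM in PCBP2 knockdown, 6.76 ± 1.10 CPM in PCBP1 knockdown and 15.3 ± 3.02 CPM in control.

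Of the 6 genes, 4 have transcripts annotated as retained intron, mRNAs that keep an intron. In Ptpa these held 15.6% to 17.6% of the reads in PCBP2 knockdown at Day 2, against 10.2% to 14.1% in control. In Ddx19a they held 20.96% to 22.7% in PCBP2 knockdown and 22.2% to 24.0% in control at Day 2, which overlap, and 14.3% to 19.1% in PCBP1 knockdown. The Ddx19a share was much lower at Day 0, at 3.47% to 4.24% in PCBP2 knockdown and 2.38% to 3.08% in control. In Arhgap45 the Day 2 averages were 22.0% in PCBP2 knockdown, 25.8% in PCBP1 knockdown and 23.1% in control. In Tmem259 the share was 7.90% to 11.7% in PCBP2 knockdown and 11.96% to 13.5% in control at Day 2. The range in PCBP2 knockdown thus lay below control in Tmem259 and above it in Ptpa. How often transcript shares of all genes part from control in this way was not counted, here or for the transcripts above.

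**Figure D5:**
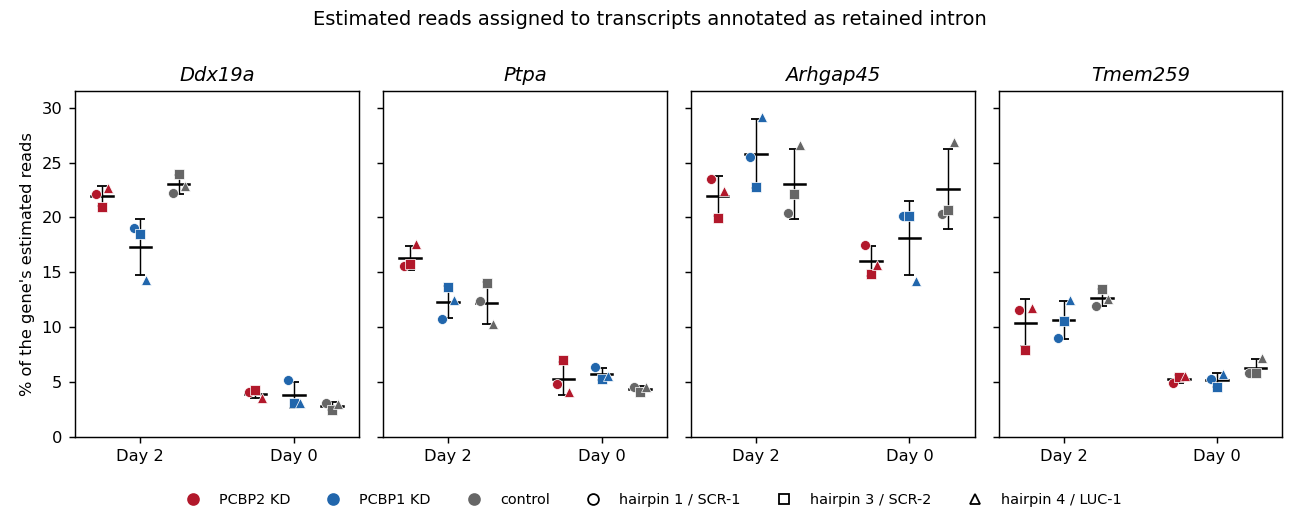
Share of each gene's estimated reads (%) given to its transcripts annotated as retained intron, in every library at Day 2 and Day 0, with the mean ± SD of 3 libraries. For Ptpa at Day 2, PCBP2 knockdown (red, 15.6% to 17.6%) lies above control (grey, 10.2% to 14.1%); for Ddx19a every Day 2 library lies above every Day 0 library.

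Splicing was read from the authors' deposited tables of local splicing variations, which give for each junction the percent spliced in (PSI), the share of the reads at an exon edge that use the junction, over the pooled libraries of a group. They give no error or depth. In these tables none of the 6 genes had a variation with a posterior of 0.95 or more in any of the 4 comparisons, where over all genes 0.0718% of variations did in PCBP2 knockdown at Day 2 and 0.191% in PCBP1 knockdown at Day 2. The posterior is, per the file headers, the probability that the PSI changed by a set size or more. In the authors' deposited table for PCBP2 knockdown at Day 2 the largest difference in PSI was 7.1 points in Ddx19a, 6.1 in Ptpa, 8.6 in Arhgap45, 10.4 in Tmem259, 8.9 in Vps37b and 9.7 in Smim4. The posterior covers only changes of the set size or more, so a low posterior does not mean that a smaller change is absent.

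The highest posterior of the 6 genes was at an exon of Ptpa, in PCBP1 knockdown at Day 2. It is exon 5 of the 10 exons of Ptpa-201, 118 bases of coding sequence at chr2:30435564-30435681 on the plus strand, a length that leaves a remainder of 1 base after division by 3. It is shown because it is the stretch that was included or skipped, with runs of 3 or more C in capitals.
Ptpa exon: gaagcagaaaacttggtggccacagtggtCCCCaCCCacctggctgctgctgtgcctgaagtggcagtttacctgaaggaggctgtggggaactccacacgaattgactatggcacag

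In the authors' deposited tables the junction into this Ptpa exon had a PSI of 69.3% in PCBP2 knockdown, 79.8% in PCBP1 knockdown and 63.7% in control at Day 2. In the same deposited tables the junction that skips it had 21.4% in PCBP2 knockdown, 11.0% in PCBP1 knockdown and 27.0% in control. The posterior in the authors' deposited tables was 4.70e-05 for PCBP2 knockdown and 0.28 for PCBP1 knockdown. At Day 0 the authors' deposited tables put the junction into the exon at 99.4% in PCBP2 knockdown, 99.9% in PCBP1 knockdown and 99.6% in control. They put the skipping junction at 0.3% in PCBP2 knockdown, 0.0% in PCBP1 knockdown and 0.2% in control at Day 0.

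In Tmem259, the junction between 79978475 and 79978548 on chromosome 10 had a PSI of 69.7% in PCBP2 knockdown, 64.2% in PCBP1 knockdown and 78.3% in control at Day 2 in the authors' deposited tables. At Day 0 the authors' deposited tables gave 85.6% in PCBP2 knockdown, 77.2% in PCBP1 knockdown and 87.2% in control.

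Vps37b had junctions that reached upstream of the annotated gene. In the authors' deposited tables the usual first junction, between 124010859 and 124032102 on chromosome 5, had a PSI of 65.2% in PCBP2 knockdown, 65.1% in PCBP1 knockdown and 74.1% in control at Day 2. At Day 0 it had 90.8% in PCBP2 knockdown, 92.6% in PCBP1 knockdown and 96.2% in control in the authors' deposited tables. A junction to 124051855, 19585 bases upstream of the gene, had 16.6% in PCBP2 knockdown, 17.6% in PCBP1 knockdown and 15.0% in control at Day 2 in the authors' deposited tables. At Day 0 the authors' deposited tables put it at 0.0% in PCBP2 knockdown, 0.0% in PCBP1 knockdown and 0.3% in control. That position lies in Gm43661, a lincRNA gene on the same strand. Junctions to 124051614 and to 124045218, also in Gm43661, had 7.1% and 2.9% in PCBP2 knockdown at Day 2 in the authors' deposited tables. In the same order they had 1.6% and 8.6% in PCBP1 knockdown, and 2.2% and 4.0% in control. Gm43661 had 68.6 ± 6.54 CPM in PCBP2 knockdown, 36.1 ± 5.84 CPM in PCBP1 knockdown and 65.4 ± 2.97 CPM in control at Day 2 (SD, n = 3 each), and under 3 CPM in every group at Day 0. Its reads were thus near control in PCBP2 knockdown, where those of Vps37b were lower.

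Reads that other genes could share with the 6 were checked. Ddx19b, the close paralog of Ddx19a 5387 bases away, shares 37.5% of the stretches of 31 bases in Ddx19a-201. Ddx19b had 11.9 ± 1.09 CPM in PCBP2 knockdown, 15.0 ± 2.40 CPM in PCBP1 knockdown and 12.8 ± 1.91 CPM in control at Day 2, and a log2 fold change of -0.10 in PCBP2 knockdown over control that did not pass the test. Since the split of reads between the 2 genes is estimated, a part of either value is uncertain. Tmem259 shares 22.7% of its exon bases with Grin3b, a gene on the other strand, which had 0.530 ± 0.04 CPM in PCBP2 knockdown and 0.946 ± 0.33 CPM in control at Day 2. Vps37b shares 32.9% of its exon bases with Hip1r, also on the other strand, which had 7.08 ± 0.948 CPM in PCBP2 knockdown and 8.58 ± 1.66 CPM in control. Smim4 overlaps Pbrm1 but shares 0 exon bases with it. The use of strand in the counting is not given in the sources used here, so reads from such pairs could not be told apart. Grin3b stayed under 1 CPM on average in every group. At Day 0 Hip1r had 15.1 ± 0.74 CPM in PCBP2 knockdown, 15.6 ± 0.499 CPM in PCBP1 knockdown and 15.97 ± 1.54 CPM in control, beside averages of 23.3, 20.9 and 28.4 CPM for Vps37b in those groups, so the Day 0 values of Vps37b carry this uncertainty.

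The pathway of each gene was followed through a list of its other genes. Calls here and for the neighbours below are from the fit of all 18 libraries. Far fewer genes were called with the 9 libraries of Day 2 alone, as given below. The mRNA export list held 14 tested genes beside Ddx19a, of which 1 fell and 0 rose in PCBP2 knockdown at Day 2, where 4.7% of all tested genes were called in either direction. That gene was Ddx39b, a helicase that loads export factors on mRNA, with a log2 fold change of -0.37 and 73.0 ± 4.09 CPM in PCBP2 knockdown against 94.6 ± 8.97 CPM in control (adjusted p = 0.0303 in edgeR's quasi-likelihood test). The median of the list was -0.08, against -0.01 over all tested genes. Of 17 PP2A-type phosphatase genes beside Ptpa, 0 were called, with a median of -0.01. The one with the smallest p, the regulatory subunit Ppp2r5d, had 39.9 ± 5.39 CPM in PCBP2 knockdown and 29.6 ± 2.23 CPM in control (adjusted p = 0.0613, edgeR). With the GC trend removed Ppp2r5d was called higher, at a log2 fold change of 0.52 (adjusted p = 0.0324, edgeR), the 1 call of the list.

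Of 14 small GTPases and their regulators in blood cells beside Arhgap45, 1 fell, against 3.75% of all tested genes called lower. It was Arhgdia, which encodes an inhibitor that keeps such GTPases inactive in the cytosol. Its log2 fold change in PCBP2 knockdown at Day 2 was -0.44 (adjusted p = 0.0404 in edgeR's quasi-likelihood test), and the median of the list was -0.17. Of 18 genes of ER-associated degradation beside Tmem259, 2 fell, against the same 3.75% of all tested genes, namely Os9, a lectin that recognises misfolded glycoproteins, at -0.47 (adjusted p = 0.0153, edgeR) and Aup1, a factor of the same pathway, at -0.46 (adjusted p = 0.0169, edgeR). The median of that list was -0.13 in PCBP2 knockdown and -0.34 in PCBP1 knockdown at Day 2, where 9 of the 18 fell and 0 rose, against 7.61% of all tested genes called lower.

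The ESCRT-0 and ESCRT-I list had 10 genes tested beside Vps37b, as 11 gene identifiers since Hgs has 2 at one locus. Mvb12b, another ESCRT-I subunit, fell at -0.54 (adjusted p = 0.00337 in edgeR's quasi-likelihood test), and so did 1 of the 2 Hgs identifiers at -0.54 (adjusted p = 0.0236, edgeR), while the other had -0.06. These are 2 of 11 identifiers, against 3.75% of all tested genes called lower, and both calls were lost with the GC trend removed. The partners Tsg101 (-0.24) and Vps37c (-0.13) did not pass the test. Of 15 genes of respiratory complex III and its assembly beside Smim4, 2 fell, against 3.75% of all tested genes, both small subunits of the complex, Uqcrq at -0.86 (adjusted p = 0.00481, edgeR) and Uqcr11 at -0.71 (adjusted p = 0.0298, edgeR). The median of that list was -0.06. Uqcrq had 22.0 ± 1.91 CPM in PCBP2 knockdown against 39.8 ± 9.12 CPM in control, and fell in PCBP1 knockdown as well, at -0.87. In the list of the PCBP family with Hnrnpk, Pcbp2 was the 1 gene of 5 that fell. In PCBP2 knockdown at Day 0, 0 genes of these lists were called apart from Pcbp2. The calls of Ddx39b, Arhgdia, Os9, Aup1 and Uqcr11 were also lost with the GC trend removed, and that of Uqcrq was kept. Sel1l of the ER-associated degradation list was called lower with the trend removed, at -0.40 (adjusted p = 0.0469, edgeR), and not without, at -0.33.

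The genes next to the 6 on the chromosome, the nearest 2 tested genes on each side, came to 22. In PCBP2 knockdown at Day 2, 7 of them fell and 0 rose, with a median log2 fold change of -0.37, against 3.75% of all tested genes called lower and a median of -0.01. St3gal2, 2515 bases from Ddx19a, had -1.01, and Dolpp1 and Crat near Ptpa had -0.85 and -0.56. Abca7, which lies between Tmem259 and Arhgap45 at 1080 bases from Arhgap45, had -0.75. Polr2e and Gpx4 on the other side of Arhgap45 had -0.59 and -0.41, and Nt5dc2 near Smim4 had -0.55. No neighbour of Vps37b was called. In PCBP1 knockdown at Day 2, 7 of the 22 also fell and 0 rose, against 7.61% of all tested genes called lower, with a median of -0.38, and in PCBP2 knockdown at Day 0 none was called and the median was -0.11. With the GC trend removed, 3 of the 22 (St3gal2, Abca7 and Polr2e) were called lower in PCBP2 knockdown at Day 2, against 1.87% of all tested genes, with a median of -0.31. In PCBP1 knockdown 4 were called lower, against 6.22% of all tested genes, with a median of -0.22.

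The genes with the most similar pattern were found by Pearson's r of log2 CPM, centred within each day, over the 18 libraries and 9707 genes with an average log2 CPM of at least 2. It is a description, since the 18 points share conditions and controls. Ddx19a was nearest to Ptpa (r = 0.932) and Gorab (0.921), and Ptpa had Ube3b (0.963) among its nearest 2. Arhgap45 was nearest to Csk (0.934) and Edem2 (0.933), Tmem259 to Srrt (0.959) and Uqcrq (0.952), Vps37b to Frmd8 (0.966) and Samd14 (0.953), and Smim4 to Trim58 (0.940) and Wdtc1 (0.915). Among the 6, the closest pairs were Ddx19a with Ptpa and Tmem259 with Vps37b (r = 0.934), and the most distant was Ddx19a with Vps37b (r = 0.426).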

How the data were processed

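RNA was sequenced from 18 libraries in 6 groups of 3. The submitters' processing notes name FastQC 0.11.9, Trim Galore 1.46.0, STAR 2.5.3a, SAMtools 1.9, Salmon 0.11.3 and the GRCm38 genome. Per the file headers, the authors deposited the estimated count, effective length and TPM of each transcript from Salmon, in a table for each of the libraries. A further 4 deposited tables hold local splicing variations, with PSI and a posterior for each junction over pooled libraries; the tool behind them is not given in the sources used here.

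Estimated counts were summed per gene of GENCODE M21 (110403 of 111706 transcripts matched; the others held 0.275% to 0.579% of the reads of a library) and rounded to whole numbers. The edgeR 4.0.16 expression filter kept 17500 of 46167 genes. A model with 6 group means and 12 residual degrees of freedom was fitted with TMM scaling and edgeR's quasi-likelihood test (R 4.3.3), with Benjamini-Hochberg adjustment over all tested genes and a threshold of 0.05. Log2 fold changes are fitted values. The GC trend was removed with lowess offsets (span 0.3) per library. The fit and the GC step were tested on simulated data. GC content is of the annotated transcripts, weighted by their mean TPM over all libraries. The order of alignment and quantification, the strand setting and any bias correction in Salmon are not given in the sources used here. With estimated counts, precision is limited by read assignment as well as by counting.

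The 6 genes, the lists and the tests were chosen with earlier results of these data known. Lists follow textbook membership. Genes named beside the 6 are, from each list, up to 3 called genes with the smallest p (or the 1 with the smallest p), the nearest 2 tested genes on each side, and the 2 most similar genes; some items that these rules name are not reported here. Mvb12b's partners Tsg101 and Vps37c, Sel1l, Ddx19b, Grin3b, Hip1r, Pbrm1 and Gm43661 were added after their values were seen. Alternatives were GC correction, the 9 libraries of a day alone, DESeq2 1.42.0, scaling by library totals or RLE size factors, 2 other filters on low counts, an effective length offset, leaving out each library, and a replicate block (limma 3.58.1).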

Additional observations from a re-analysis of the deposited data

How the results depend on the processing

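Of 600 recomputed log2 fold changes of the 6 genes, 528 kept their direction and side of the threshold, 35 lost a call, 5 gained one and 32 changed sign. In PCBP2 knockdown against control at Day 2 all 6 genes stayed lower and called, except with the 9 libraries of the day and the GC trend removed, where 0 were called and the signs held. These refits reuse the libraries that chose the genes, so the calls kept there are a description and no further test. Most sign changes were of values near 0.

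The number of genes called in that comparison was 822, and 399 with the GC trend removed, 30 with the 9 libraries of the day, 2 with those and GC removed, 1532 with DESeq2, and 437 to 970 with 1 library left out. In PCBP1 knockdown at Day 2 it was 2296, and 899 with the 9 libraries, 473 with those and GC removed, 4080 with library totals (3454 higher, 626 lower, against 964 higher and 1332 lower) and 1485 to 2663 with 1 library left out. In PCBP2 against PCBP1 knockdown at Day 2 it was 2115, and 401 with the 9 libraries, 511 with those and GC removed, and 1043 to 3044 with 1 library left out. In PCBP2 knockdown at Day 0 it was 4, and 7 with the 9 libraries and GC removed, 10 with DESeq2, 65 with no filter, 2 with effective lengths, and 2 to 6 with 1 library left out. In PCBP1 knockdown at Day 0 it was 154, and 20 with GC removed, 1074 with the 9 libraries, 311 with those and GC removed, 430 with DESeq2, 479 with no filter, 65 with effective lengths, and 17 to 131 with 1 library left out. Between the days in PCBP1 knockdown it was 14356, and 14110 to 14294 with 1 library left out; with library totals the split was 3812 higher and 10964 lower, against 7055 higher and 7301 lower.

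Of the 6 genes, 1 was called in PCBP1 knockdown at Day 0. This was 0 with GC removed, with the 9 libraries and GC removed, with RLE or with effective lengths, 3 with the 9 libraries, 2 with no filter, and 0 to 1 with 1 library left out. In PCBP1 knockdown at Day 2 it was 3, 1 with the 9 libraries and GC removed, and 2 to 3 with 1 library left out. With 1 library left out it was 6 in PCBP2 knockdown at Day 2, 0 at Day 0, 3 to 4 in PCBP2 against PCBP1 knockdown, and 4 to 5 between the days. Counts that use the Day 2 control or PCBP2 knockdown libraries are a description, since those libraries chose the genes.

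Values that changed sign were, in PCBP1 knockdown at Day 2, Ptpa (0.021 with GC removed, 0.043 with the 9 libraries and GC removed, 0.030 with library totals), Arhgap45 (0.24, 0.27 and 0.20 under the same settings, and -0.13 to 0.088 with 1 library left out) and Ddx19a (0.17 with library totals, and -0.13 to 0.043 with 1 library left out). In PCBP2 against PCBP1 knockdown Vps37b was -0.0061 with GC removed and -0.061 to 0.051 with 1 library left out. At Day 0 in PCBP1 knockdown Ptpa was 0.063 with GC removed and 0.076 with the 9 libraries and GC removed, and Smim4 was -0.35 to 0.013 with 1 library left out. At Day 0 in PCBP2 knockdown Tmem259 was 0.014 with the 9 libraries and GC removed, and Ddx19a was 1.84e-05 with no filter, 0.036 with effective lengths and -0.062 to 0.029 with 1 library left out. Between the days in PCBP1 knockdown Ddx19a was -1.35 with library totals, -0.11 with no filter and -0.081 to 0.084 with 1 library left out, and Ptpa was -1.21 with library totals. Causes were not tested.

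Same-hairpin correlations across days were weak, at -0.0092 to 0.0418. Within its condition the own hairpin gave the highest correlation for SCR-2, PCBP1 hairpin 4 and PCBP2 hairpins 1, 3 and 4. It did not for SCR-1, LUC-1 and PCBP1 hairpins 1 and 3, so a pairing by hairpin is not settled. With the replicate block, 339 genes were called in PCBP1 knockdown at Day 0; with the block and the GC trend removed, 309 in PCBP2 knockdown at Day 2, 1490 in PCBP1 knockdown at Day 2, and 83 with 0 of the 6 genes in PCBP1 knockdown at Day 0. With the block and GC removed, Ptpa was 0.023 and Arhgap45 0.24 in PCBP1 knockdown at Day 2, Ptpa 0.062 in PCBP1 knockdown at Day 0, and Vps37b -0.0087 in PCBP2 against PCBP1 knockdown.

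The spread between libraries was larger at Day 2 (common dispersion 0.0293) than at Day 0 (0.00749), and the shared estimate (0.0169) lies between. Smim4 and Tmem259 had the fewest reads.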
